A study of Mus musculus with 8 samples.

Results

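The genes described here code for the protein part of the cytosolic ribosome, the machine that translates messenger RNA in every cell. They were chosen by name. Every gene whose single annotated symbol began with Rpl or Rps and a number was taken, together with Rplp0, Rplp1, Rplp2 and Rpsa. S6 kinases (symbols beginning with Rps6k) and numbered pseudogenes were left out. The rule found 76 of the 18820 genes measured, made up of 42 proteins of the large subunit, 25 of the small subunit and 9 paralogs, copies or binding partners that carry a ribosomal protein's name.

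RNA came from epididymal white adipose tissue, a visceral fat depot, of male C57BL/6 mice. The wild-type group had 4 arrays. The other group (IL37TG) also had 4 and came from mice with a transgene for human IL-37, an anti-inflammatory cytokine of the IL-1 family. Both groups received a low-fat run-in diet (10% of energy from fat) for 2 weeks, then a high-fat diet (45%) for 16 weeks. Wild-type mice were bought from a supplier and the transgenic mice came from a line described earlier, so genotype and colony of origin cannot be told apart. The transgene's promoter and the age of the mice are not given in the sources used here, and human IL37 itself was not measured. Values are log2 expression levels, in which a difference of 1 is a 2-fold difference, and differences are transgenic minus wild type throughout. The labels number the arrays without naming the mouse behind each, so a p-value here refers to the scatter between these samples alone, which may be technical.

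A ribosome holds 1 copy of nearly every one of these proteins, so their synthesis has to be kept in step. In mammals much of that control acts on translation: most of these messenger RNAs start with a cytosine followed by a run of pyrimidines, the 5′ terminal oligopyrimidine (TOP) tract. Through it they are translated or held back together, depending on the growth-sensing kinase mTORC1 and the binding protein Larp1. An array measures how much messenger RNA is there and not how much of it is translated. Many of these genes also have a small nucleolar RNA in an intron, which is released from the spliced intron and guides the modification of ribosomal or other RNA.

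The TOP tract could be read in the reference sequence at the annotated start sites. Of the 76 genes, 62 matched a RefSeq promoter of assembly GRCm38.p6 (250 bases before to 50 after the start), with 74 promoters in all. A cytosine at the start followed by at least 4 further C or T bases was present in 14 of the 74, or 18.9%, against 2.51% of all 32851 promoters. 8 of the 14 are given here as examples, in the order of their expression difference. Whether the tract goes with the difference was not tested. Each line runs 5′ to 3′ from 10 bases before the start through the first 20 of the transcript, with the tract in capitals.
Rps6: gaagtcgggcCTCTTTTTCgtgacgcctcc
Rpl28: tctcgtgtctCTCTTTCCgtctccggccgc
Rpl35: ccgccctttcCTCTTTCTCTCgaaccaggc
Rpl15: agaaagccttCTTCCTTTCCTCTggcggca
Rps10: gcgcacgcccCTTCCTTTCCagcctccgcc
Rps27: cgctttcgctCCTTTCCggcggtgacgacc
Rpl38: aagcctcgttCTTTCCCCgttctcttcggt
Rplp2: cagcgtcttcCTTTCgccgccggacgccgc
The windows are Rps6 at chr4:86857348-86857377 (minus strand), Rpl28 at chr7:4792955-4792984 (plus), Rpl35 at chr2:39005112-39005141 (minus), Rpl15 at chr14:18270967-18270996 (minus), Rps10 at chr17:27635225-27635254 (minus), Rps27 at chr3:90213629-90213658 (minus), Rpl38 at chr11:114668570-114668599 (plus) and Rplp2 at chr7:141447641-141447670 (plus). The tract was 5 bases long in Rplp2 and 13 in Rpl15. An annotated start that lies a few bases off the true one hides the tract, so a missing match says nothing about the messenger RNA.

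Other promoter features were also unevenly spread. CCGGAAG, looked for on both strands, lay in 36.5% of the members' promoters and 8.86% of all promoters. The palindrome TCTCGCGA lay in 16.2% and 0.995%. AAGATGG, also looked for on both strands, lay in 14.9% and 6.34%, and its first 3 bases can be the last 3 of the first motif. A TATA box (TATAAA) lying wholly between 40 and 20 bases before the start, on the gene's strand, was in 0 of the 74 and in 1.87% of all promoters. The 14 members with a TOP tract at the annotated start had a median expression difference of 0.13 (range 0.0083 to 0.24), and the 48 others with a promoter 0.056. The median GC content was 57.3% in the members' promoters and 52.7% in all promoters.

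The messenger RNAs of the cytosolic ribosome differed little between the groups of fat. No member of 76 passed the threshold in either direction (limma, Benjamini-Hochberg adjusted p at most 0.05 over all genes), where 3.34% of all genes did (2.07% higher and 1.27% lower). At an unadjusted limma p of 0.05, 14 members were higher (18.4%) and 0 lower, against 11.2% and 9.42% of all genes. The median difference over the members was 0.058, that over all genes 0.019. The members' median was 0.048 after a second quantile normalisation and 0.070 with arrays centred on their medians. Centring each array on the median value of these genes themselves gave -0.073 for the members and -0.11 for all genes. Centring on the median of their deviations from the gene means, added after the data were seen, gave 0.0019 and -0.037. That second centring removes the members' shared shift by construction. The array names hold a letter and a number whose meaning the labels do not give. Within the number 5, 7 or 9 the members' median was 0.12, 0.023 and 0.032. Number 5 holds only wild-type replicate 3 and transgenic replicate 2. Number 7 holds wild-type replicates 1 and 4 and transgenic replicate 3, and number 9 wild-type replicate 2 and transgenic replicates 1 and 4. Within G, the single letter found in both groups (2 wild-type arrays and 1 transgenic array), the members' median was 0.079. In whole tissue, less RNA per cell and fewer cells of a type cannot be told apart.

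Differences ran from -0.12 for Rps23rg1, a retroposed copy of Rps23, to 0.29 for Rps19, and the quartiles of the members were 0.0091 and 0.13. Of the 76, 59 were above 0 and 17 below, which is 77.6% above 0 against 55.3% of all genes. The intervals were narrow. For 74 of the 76 (97.4%) the 95% confidence interval lay within 0.5 of 0 on the log2 scale, which is a 1.41-fold difference, as it did for 74.9% of all genes. The exceptions were Rpl39l and Rpl10l, weakly measured paralogs, and all 76 intervals lay within 1 of 0 (92.2% of all genes). The median of the members' SDs within groups was 0.072, that of all genes 0.13. Narrow intervals were not particular to these genes. The median SD was 0.070 in 17 other TOP messenger RNAs, 0.073 in 30 initiation factors and 0.12 in 10 elongation and release factors. In these lists 100%, 96.7% and 100% of the intervals lay within 0.5 of 0.

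**Figure D1:**
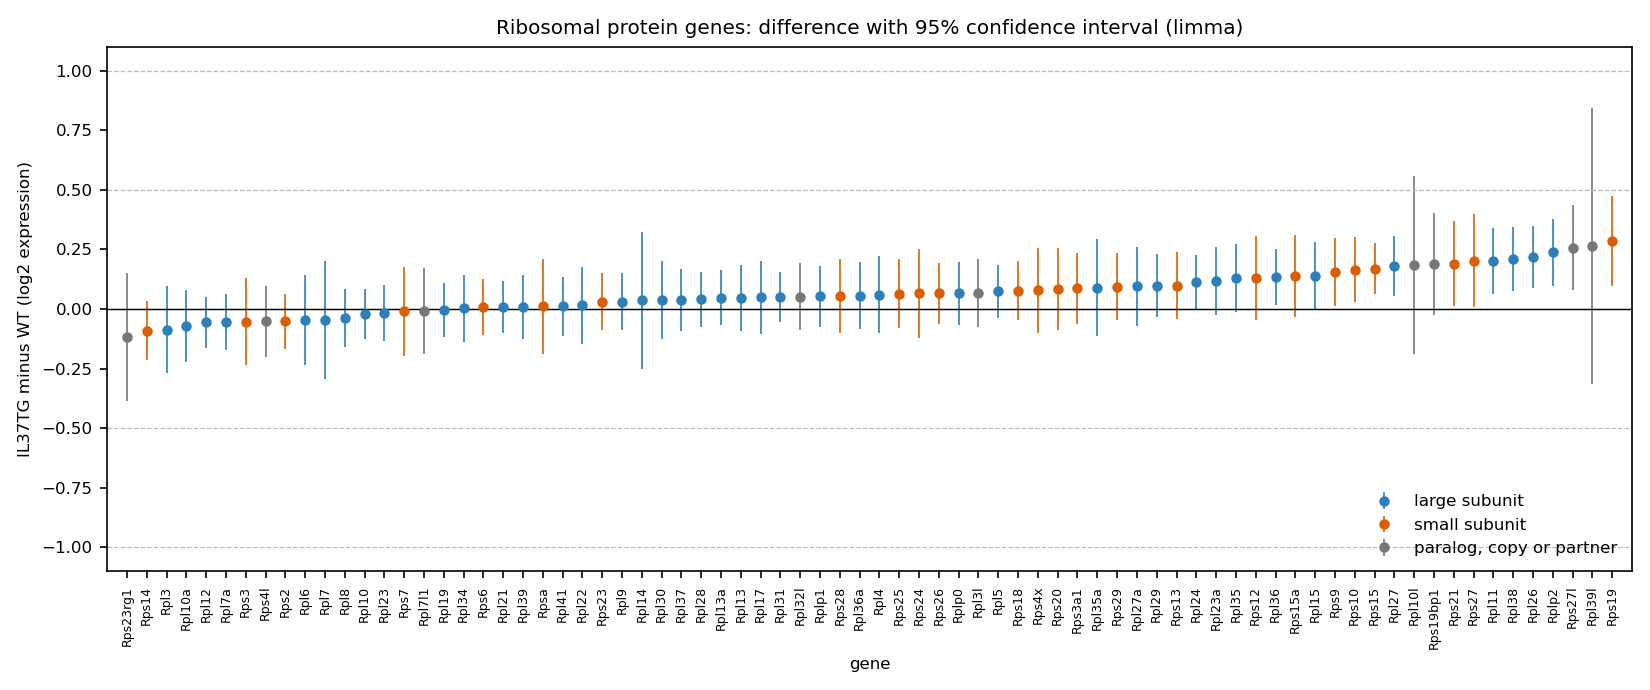
Difference between transgenic and wild-type fat (log2 expression, vertical axis) for each of the 76 genes, ordered by difference, with bars for the 95% confidence interval from limma and colours for the subunit. The values run from -0.12 (Rps23rg1) to 0.29 (Rps19), and 2 bars, those of Rpl39l and Rpl10l, reach past the dashed lines at 0.5 on either side of 0.

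In 13 members (17.1%) all 4 transgenic arrays lay above all 4 wild-type arrays, and in none did all lie below. Among all genes the shares were 8.24% and 5.73%. These 13 were Rpl5, Rpl11, Rpl24, Rpl26, Rpl27, Rpl36, Rpl38 and Rplp2 of the large subunit, Rps9, Rps10, Rps15 and Rps19 of the small subunit, and the paralog Rps27l. Of these, Rpl5 and Rpl11 also work outside translation, where they bind Mdm2 and so stabilise p53. RPS19, RPL5 and RPL11 are among the ribosomal protein genes mutated in Diamond-Blackfan anaemia, which were not looked at as a set. Rpl5, Rpl24, Rpl27, Rpl36, Rps9, Rps10 and Rps15 were picked out after their values were seen.

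Among the 25 small subunit genes the median difference was 0.078, with 21 above 0 and 4 below. Rps19, needed to mature the small subunit's ribosomal RNA, measured 9.83, 10.01, 10.03 and 10.07 in wild-type replicates 1 to 4 and 10.36, 10.20, 10.39 and 10.13 in the transgenic replicates. The groups did not touch, but the distance between the nearest arrays was small. The difference was 0.29 (SE 0.082, limma adjusted p = 0.0985), or 1.22-fold, and it lay between 0.24 and 0.33 when any single array was left out. Rps15, a protein at the head of the small subunit, measured 11.96, 11.99, 11.96 and 11.91 in wild type and 12.11, 12.12, 12.11 and 12.16 in transgenic fat. Its values lay close together within each group (SD 0.035 and 0.022), and the difference of 0.17 (SE 0.047) had a limma adjusted p of 0.0894.

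Rps6, the substrate of the S6 kinases that is used as a readout of mTORC1 activity through its phosphorylation, measured 12.61, 12.60, 12.68 and 12.63 in wild type and 12.56, 12.65, 12.69 and 12.65 in transgenic fat. The groups overlapped throughout, and the 95% confidence interval of the difference of 0.0083 ran from -0.11 to 0.13. Phosphorylation was not measured. Rpsa, the laminin receptor protein of the small subunit, differed by 0.011 (SE 0.088). Rps27 measured 8.86, 8.95, 9.12 and 8.81 in wild type and 9.23, 9.01, 9.21 and 9.11 in transgenic fat, with 1 wild-type array inside the transgenic range. Its difference of 0.20 (SE 0.085) had a limma adjusted p of 0.227. At the other end of the subunit, Rps14 measured 10.21, 10.24, 10.19 and 10.20 in wild type and 10.15, 10.10, 10.20 and 10.03 in transgenic fat. Of the transgenic arrays, 3 lay below all wild-type arrays and replicate 3 lay among them (difference -0.09, SE 0.054, limma adjusted p = 0.377). The other, dimmer probe set of Rps14 (mean 8.94) differed by -0.25 and was not called over all probe sets. Rps3, a protein at the entry of the messenger RNA channel, differed by -0.05 (SE 0.079).

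Among the 42 large subunit genes the median difference was 0.048, with 32 above 0 and 10 below. Rpl26, which lies near the exit of the peptide tunnel, measured 8.36, 8.40, 8.42 and 8.23 in wild type and 8.57, 8.56, 8.59 and 8.57 in transgenic fat. The transgenic arrays agreed to within an SD of 0.013. The difference was 0.22 (SE 0.057, limma adjusted p = 0.0798), or 1.16-fold. Rpl38, known from mouse genetics for its part in translating Hox messenger RNAs, measured 11.28, 11.34, 11.24 and 11.27 in wild type and 11.47, 11.58, 11.39 and 11.54 in transgenic fat. Every transgenic array lay above every wild-type one, by a mean of 0.21 (SE 0.059, limma adjusted p = 0.0905). Rpl11, which with Rpl5 and the ribosome's 5S RNA forms the particle that binds Mdm2, measured 10.58, 10.78, 10.72 and 10.71 in wild type and 10.97, 10.87, 10.87 and 10.87 in transgenic fat. Its difference was 0.20 (SE 0.060, limma adjusted p = 0.110), while that of its partner Rpl5 was 0.076 (SE 0.048, limma adjusted p = 0.418).

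The stalk of the large subunit, which recruits translation factors, is built from Rplp0, Rplp1 and Rplp2. Rplp2 measured 5.40, 5.52, 5.52 and 5.47 in wild type and 5.69, 5.77, 5.60 and 5.79 in transgenic fat, which did not overlap. The difference of 0.24 (SE 0.062) had the lowest limma adjusted p of the 76 members, 0.0773. This probe set read below the median gene mean of 6.74, and the probe sets that carry several symbols were not used. Rplp0, often used as a reference gene in PCR, measured 12.29, 12.34, 12.23 and 12.33 in wild type and 12.39, 12.42, 12.26 and 12.40 in transgenic fat. Transgenic replicate 3 lay among the wild-type arrays, and the difference was 0.067 (SE 0.057). Rplp1 differed by 0.053 (SE 0.056), and Rpl13a, another common reference gene, by 0.048 (SE 0.050). For Rplp0, Rplp1 and Rpl13a the 95% confidence intervals lay within 0.25 of 0.

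On the lower side of the large subunit, Rpl3, near the catalytic centre, measured 11.44, 11.36, 11.40 and 11.35 in wild type and 11.28, 11.52, 11.16 and 11.25 in transgenic fat. Transgenic replicate 2 was the highest of the 8 arrays and the other 3 transgenic arrays were the lowest, so that a difference of -0.09 stood beside an SE of 0.080. Rpl10a differed by -0.07 (SE 0.066), Rpl12 by -0.06 (SE 0.046) and Rpl7a by -0.05 (SE 0.051). None of these passed the threshold, with limma adjusted p between 0.525 and 0.583.

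**Figure D2:**
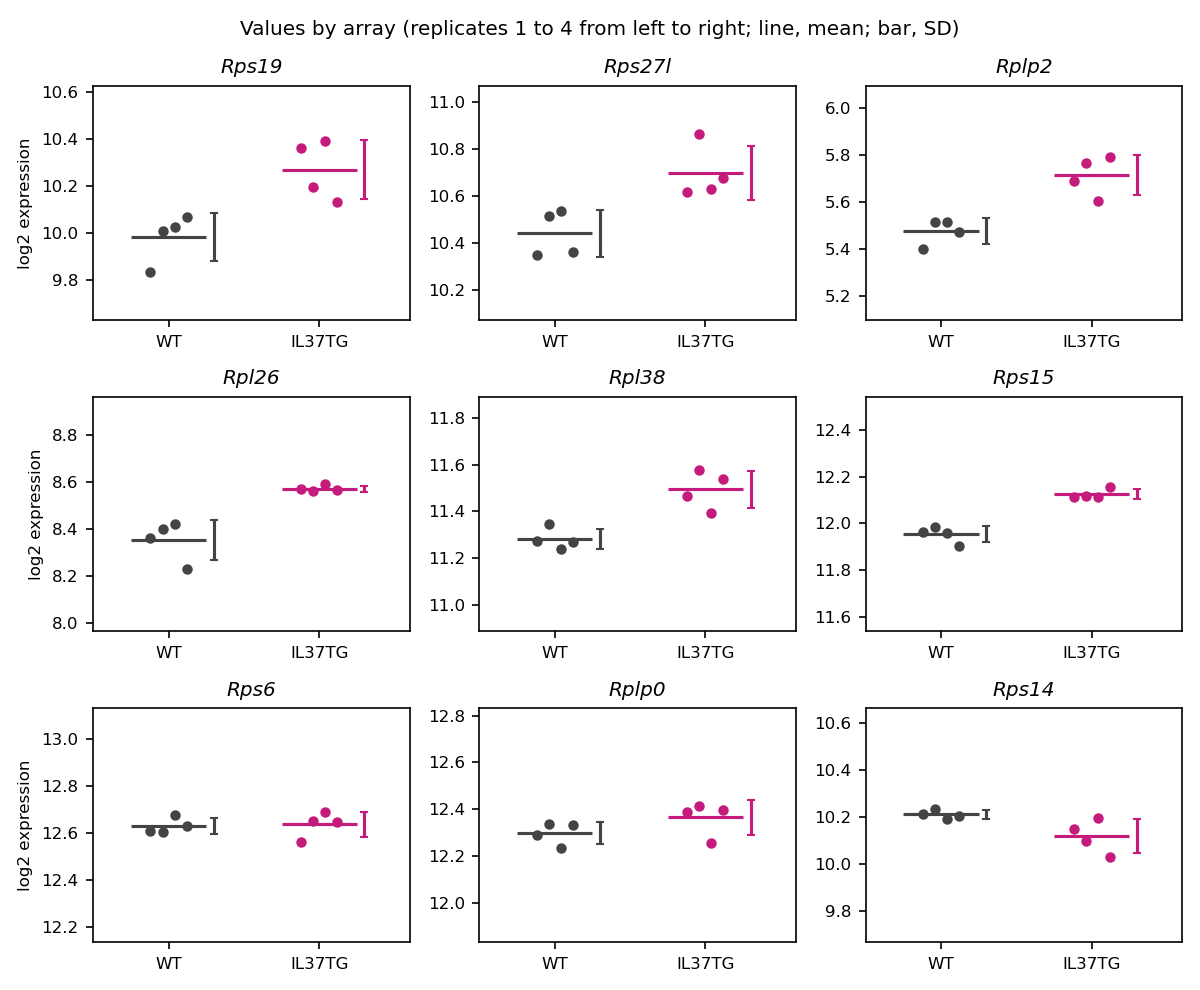
Log2 expression of 9 ribosomal protein genes in each array (points, replicates 1 to 4 from left to right), with the group mean as a line and the SD as a bar. Every panel spans 1 log2 unit. The groups are apart in Rps19, Rps27l, Rplp2, Rpl26, Rpl38 and Rps15, and overlap in Rps6, Rplp0 and Rps14.

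Several members are paralogs that replace the usual protein in some tissues, and each can be set beside its partner by its own difference. Rps27l, a p53-responsive paralog of Rps27, measured 10.35, 10.52, 10.54 and 10.36 in wild type and 10.62, 10.87, 10.63 and 10.68 in transgenic fat. All transgenic arrays lay above the wild-type ones (difference 0.26, SE 0.078, limma adjusted p = 0.115), beside 0.20 for Rps27. Rpl39l, a paralog of Rpl39 known from the testis, measured 3.50, 3.42, 3.08 and 3.40 in wild type and 3.30, 3.41, 3.31 and 4.43 in transgenic fat. Its difference of 0.26 (SE 0.25) came from transgenic replicate 4, and without that array it was -0.0087. Rpl39 itself differed by 0.0095 (SE 0.058).

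Rpl10l, the testis-expressed paralog of Rpl10, differed by 0.18 (SE 0.16), with transgenic replicates 3 and 4 at 4.27 and 4.63 and the other 6 arrays between 3.80 and 4.05. Its partner Rpl10 differed by -0.02 (SE 0.046). Rpl3l, the muscle paralog of Rpl3, differed by 0.067 (SE 0.062). These 3 paralogs, Rpl39l, Rpl10l and Rpl3l, had means under the 25th percentile of all genes (4.49), and no other member did. Rps4x and its copy Rps4l differed by 0.078 (SE 0.078) and -0.05 (SE 0.065), and Rpl7 and Rpl7l1 by -0.04 (SE 0.11) and -0.0085 (SE 0.078). Rps19bp1, which binds Rps19 and regulates the deacetylase Sirt1, differed by 0.19 (SE 0.093, limma adjusted p = 0.296). Rpl22 differed by 0.015 (SE 0.070) and Rpl36a by 0.057 (SE 0.061).

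Ribosomal protein genes have many processed copies in the genome, and the array had 387 single-symbol probe sets for the 76 members, of which 17 repeated the 8 values of another. Rpl21 alone had 41, with differences from -0.05 to 0.09. A probe set named for one gene can therefore read RNA of its copies, and the values of single members are uncertain to that extent. For 46 of the 56 members with at least 2 probe sets, all of them differed in 1 direction. The range of differences between the probe sets of one member had a median of 0.052 and reached 0.24 in Rpl36. In Rpl36, 9 probe sets with means from 10.89 to 11.91 differed by 0.10 to 0.15, and 1 with a mean of 5.58 by -0.08.

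Tested on their own over all probe sets, 1 of the 387 passed, the dimmer of a pair for Rps9, a protein of the small subunit that helps to keep decoding accurate. It measured 9.88, 9.84, 9.86 and 9.85 in wild type and 10.24, 10.17, 10.15 and 10.13 in transgenic fat, so the groups stood well apart. Its difference was 0.32 (SE 0.051, limma adjusted p = 0.0312), and that of the brighter probe set kept for the gene was 0.16 (limma adjusted p = 0.206 over genes). That test of every probe set was chosen after the data were seen.

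**Figure D3:**
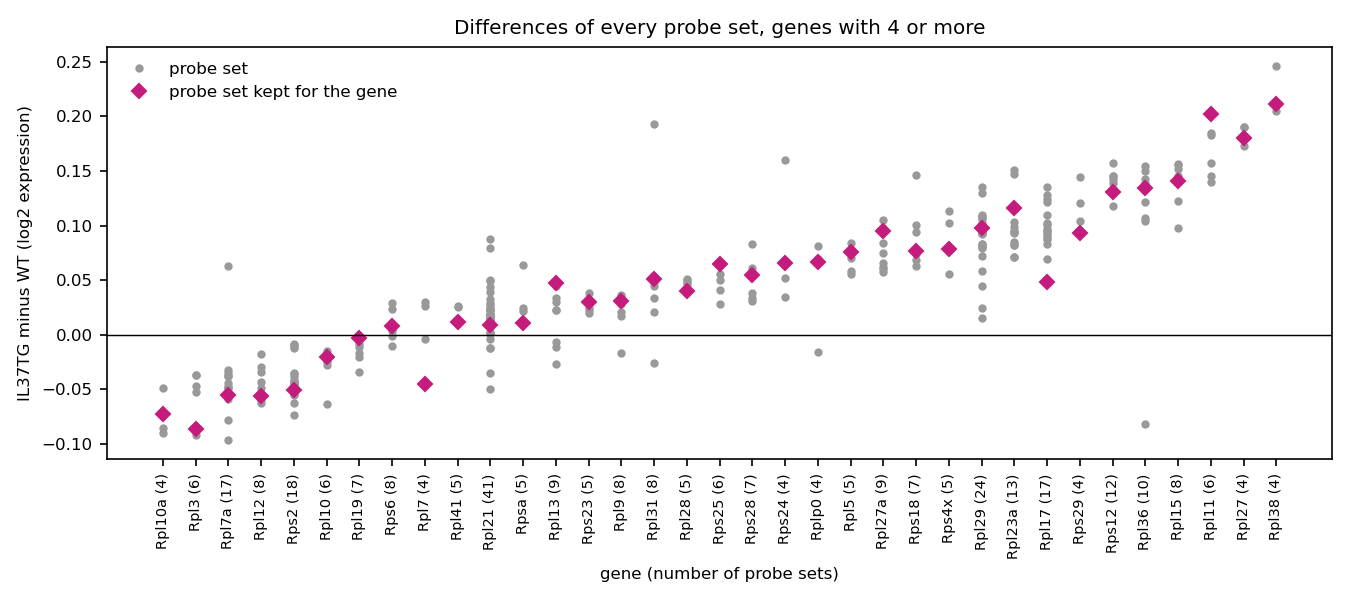
Difference between transgenic and wild-type fat (log2 expression, vertical axis) for every probe set of the members with at least 4, ordered by their median, with the kept probe set as a diamond and the number of probe sets in brackets. The points of one gene spread most in Rpl36 (range 0.24), Rpl31 (0.22) and Rpl7a (0.16).

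The members differed together between arrays of one group as well as between the groups. The median over the 76 genes of each value's deviation from the gene's mean was -0.053, -0.0019, -0.034 and -0.031 in wild-type replicates 1 to 4 and 0.042, 0.076, -0.028 and 0.015 in transgenic replicates 1 to 4. Transgenic replicate 3 thus lay within the wild-type range. Transgenic replicate 2 held the highest value of the 8 arrays for 34 of the 76 genes, beside 3232 of all 18820 genes. It also held the highest for 15 of the 30 initiation factors. Transgenic replicate 3 held the lowest for 22 members and wild-type replicate 1 for 18, beside 2287 and 2049 of all genes. Both subunits had this order of transgenic arrays, with replicate 2 at 0.070 for the large and 0.11 for the small subunit and replicate 3 at -0.033 and -0.030. The order was not particular to ribosomal proteins. Transgenic replicates 1 to 4 stood at 0.020, 0.084, -0.11 and 0.011 for initiation factors. For elongation and release factors they stood at 0.0078, 0.11, -0.099 and -0.013.

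The 74 genes of the mitochondrial ribosome, which translates the few proteins encoded by mitochondrial DNA, had the same order of transgenic arrays, with 0.12, 0.20, -0.044 and 0.0026 in replicates 1 to 4 against -0.042, -0.067, -0.056 and -0.095 in wild type. Their median difference was 0.15, with 65 above 0 (87.8%, against 55.3% of all genes) and 9 below. Of the 74, 3 passed the threshold, all higher, where 2.07% of all genes were called higher and 1.27% lower. Mrpl54 rose by 0.42 (SE 0.066, limma adjusted p = 0.0202), Mrpl55 by 0.36 (SE 0.072, limma adjusted p = 0.0418) and Mrps15 by 0.32 (SE 0.067, limma adjusted p = 0.0469). Mrpl54 lost its call without wild-type replicate 1 or 4 or transgenic replicate 1 or 2 (largest limma adjusted p 0.0728). Mrpl55 kept it only without wild-type replicate 3 or transgenic replicate 2 (largest limma adjusted p otherwise 0.124), and Mrps15 lost it on removal of any array (0.0595 to 0.136).

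**Figure D4:**
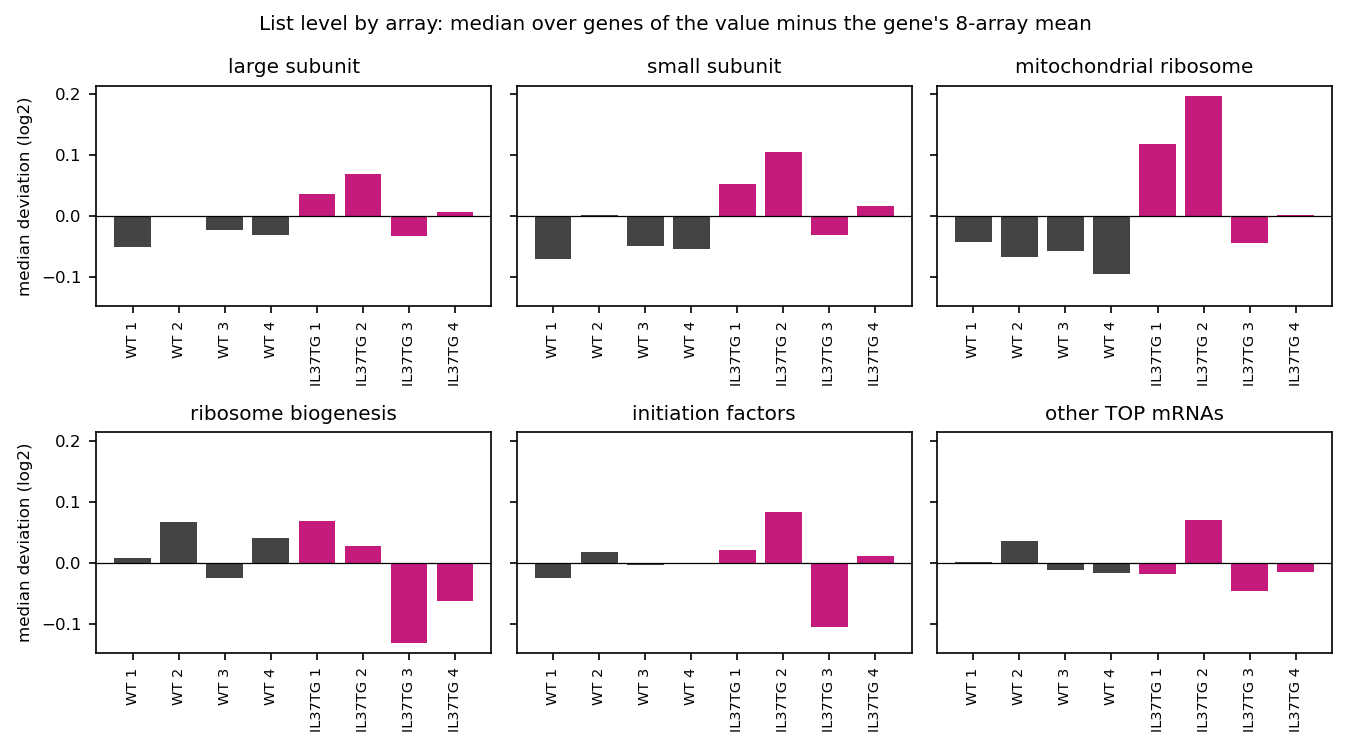
Median deviation from the gene means (log2, vertical axis) in each of the 8 arrays for 6 gene lists, with wild type in grey and transgenic in pink. Transgenic replicate 2 has the tallest bars for both cytosolic subunits (0.070 and 0.11) and the mitochondrial ribosome (0.20), while transgenic replicate 3 lies below 0 in all 3. For initiation factors and other TOP messenger RNAs, transgenic replicate 2 is also highest (0.084 and 0.070) and transgenic replicate 3 lowest (-0.11 and -0.046). For ribosome biogenesis, transgenic replicate 1 is highest (0.069) and transgenic replicate 3 lowest (-0.13).

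The rest of the translation machinery gave few calls. No gene passed among 4 ribosome partners, 10 elongation and release factors, 30 initiation factors, 17 further TOP messenger RNAs or 34 factors of ribosome assembly and RNA polymerase I. Their median differences were 0.089, 0.011, 0.018, 0.0096 and -0.06, beside 0.019 over all genes. At an unadjusted limma p of 0.05 the numbers higher and lower were 1 and 0, 0 and 1, 3 and 4, 1 and 1, and 2 and 5. In the first list the lowest p belonged to the nascent chain proteins Naca (0.15, SE 0.061, limma adjusted p = 0.209) and Btf3 (0.13, SE 0.087). In the second it was Eef1a2, the elongation factor of muscle and nerve (-0.24, SE 0.097), and Eef2k, the kinase that slows elongation (0.19, SE 0.090).

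Among initiation factors, Eif4a1, the helicase that unwinds 5′ ends, measured 12.02, 12.00, 11.99 and 12.00 in wild type and 11.85, 11.92, 11.75 and 11.74 in transgenic fat. All transgenic arrays lay below the wild-type ones (-0.19, SE 0.057, limma adjusted p = 0.114). Eif3l, a subunit of the scaffold factor eIF3, lay above them in every transgenic array (0.27, SE 0.079, limma adjusted p = 0.103), while another subunit, Eif3f, lay below (-0.14, SE 0.059, limma adjusted p = 0.222). In ribosome assembly, Sbds, which frees new large subunits from eIF6, measured 9.19, 9.24, 9.24 and 9.18 in wild type and 9.45, 9.42, 9.65 and 9.70 in transgenic fat. It missed the threshold narrowly (0.34, SE 0.076, limma adjusted p = 0.0510). Bysl, a factor of small subunit assembly, had a difference of -0.36 (SE 0.096, limma adjusted p = 0.0827), and 22 of the 34 assembly genes were below 0.

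Of 14 genes of mTORC1, its brakes and its outputs, 1 passed the threshold. Eif4ebp1, the repressor of cap-dependent translation that mTORC1 inactivates, measured 10.40, 10.86, 10.46 and 10.58 in wild type and 11.34, 11.13, 11.13 and 11.02 in transgenic fat. The groups did not overlap, and the messenger RNA rose by 0.58 (SE 0.11, limma adjusted p = 0.0386). The call held without wild-type replicate 2 or 3 and ended without any of the other 6 arrays (limma adjusted p 0.0572 to 0.115). The median difference of the 14 genes was 0.011.

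Some small nucleolar RNAs inside ribosomal protein genes rose in transgenic fat, while none of the genes around them passed the threshold. The gene table placed 30 small RNAs within 20 of the members, by position alone since the table gives no strand, and 16 of them, in 13 host genes, had a single-symbol probe set. They were looked at after results of these data were known. The gene test called 4 of the 16 higher and 0 lower, and 14 had a difference above 0. Their median difference was 0.41, and the median over their hosts was 0.049, with 12 of the 16 above their host's difference and 4 below it. The other 43 small nucleolar and Cajal body RNA genes measured had a median of 0.17, with 12 called higher and 0 lower.

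Snord15b lies in Rps3 and belongs to the box C/D class, whose members guide 2′-O-methylation. It measured 6.54, 6.50, 6.33 and 6.61 in wild type and 7.53, 7.73, 7.33 and 7.51 in transgenic fat, while its host Rps3 differed by -0.05. The small RNA rose by 1.03 (SE 0.096, limma adjusted p = 0.00535), or 2.04-fold. Its neighbour in the same host, Snord15a, differed by 0.20 (SE 0.13, limma adjusted p = 0.437). Snora52 lies in Rplp2 and belongs to the box H/ACA class, which guides pseudouridylation. It measured 10.15, 10.04, 10.21 and 10.10 in wild type and 10.98, 11.10, 10.81 and 10.93 in transgenic fat, and rose by 0.83 (SE 0.074, limma adjusted p = 0.00535), beside 0.24 in its host. That host value rests on a single dim probe set of Rplp2, which read below the median gene mean of 6.74. Snord15b and Snora52 kept their calls on removal of any single array and lost them with a block for the letter in the array names (limma adjusted p = 0.0971 and 0.0940). Within letter G they differed by 1.06 and 0.83.

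Snora3, in Rpl27a, measured 7.48, 7.92, 7.49 and 7.65 in wild type and 8.69, 8.88, 8.27 and 9.01 in transgenic fat. It rose by 1.07 (SE 0.17, limma adjusted p = 0.0203), beside 0.095 in its host, and the groups were well apart. Snord73b, in Rps3a1, measured 7.35, 7.18, 7.45 and 7.28 in wild type and 7.79, 8.03, 7.77 and 7.97 in transgenic fat. It rose by 0.58 (SE 0.086, limma adjusted p = 0.0180), beside 0.087 in its host, and Snord73a in the same host differed by 0.0075 (SE 0.14). Both calls ended under several alternatives. Snora3 lost its call without wild-type replicate 1 or 4 or transgenic replicate 1 or 2 (largest limma adjusted p 0.0737), and with blocks for the letter (0.280) or number (0.0594) in the array names. Snord73b lost it without wild-type replicate 1, 2 or 4 or transgenic replicate 2 (largest limma adjusted p 0.0707), and with blocks for the letter (0.371), the number (0.0541) or the replicate (0.0928).

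The change of each small RNA relative to its host was tested on its own by taking the host's value from that of the small RNA in every array. For 6 of the 16 pairs all transgenic values lay on one side of all wild-type values, which gives the smallest p the 70 assignments allow (exact two-sided permutation test, p = 0.0286, or 0.0762 after Benjamini-Hochberg adjustment over the 16 pairs). In all 6 the small RNA's difference exceeded its host's: Snord15b by 1.08, Snora3 by 0.98, Snora52 by 0.59, Snora69 in Rpl39 by 0.51, Snord73b by 0.49 and Snord33 in Rpl13a by 0.38. The value for Snora52 rests on the dim probe set of its host Rplp2. The largest changes in the other direction, relative to the host, were -0.27 for Snord58b and -0.14 for Snord16a. The 2 small RNAs with a difference of their own below 0 were Snord58b in Rpl17 (-0.23, SE 0.14) and Snord16a in Rpl4 (-0.08, SE 0.13).

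**Figure D5:**
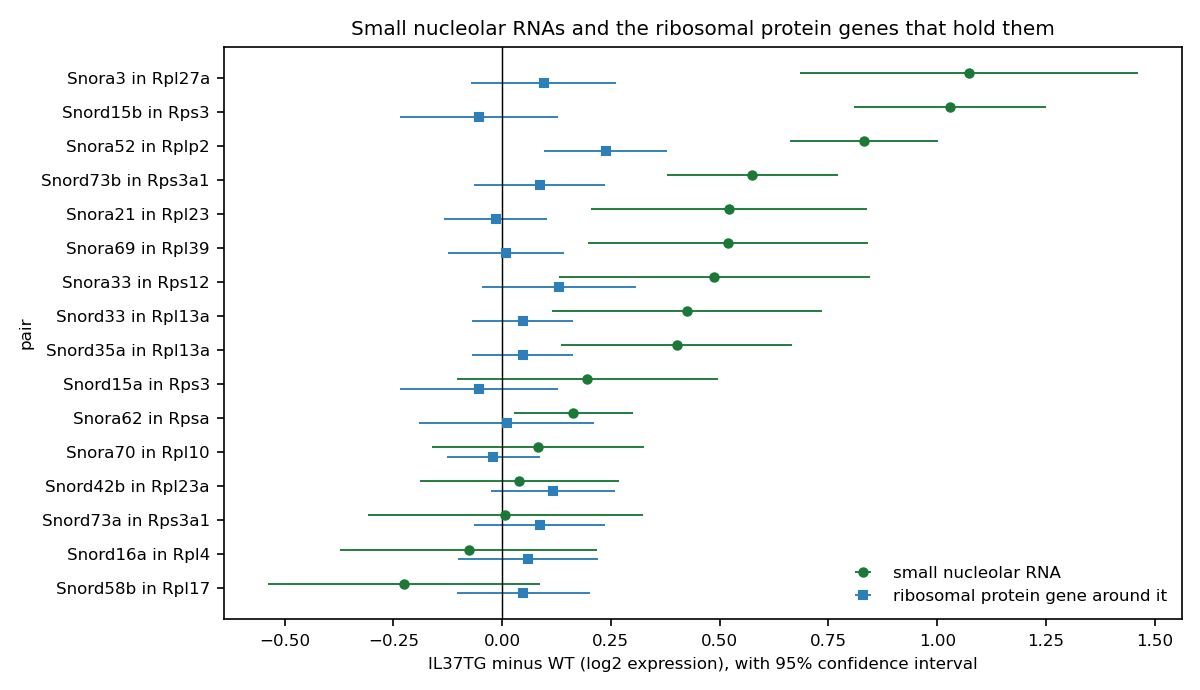
Difference between transgenic and wild-type fat (log2 expression, horizontal axis) of 16 small nucleolar RNAs (circles) and of the ribosomal protein genes around them (squares), with 95% confidence intervals from limma. The squares stay close to 0, while the circles of Snora3, Snord15b and Snora52 lie at 1.07, 1.03 and 0.83.

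Some markers of other cell types differed between the groups or between single arrays. Adipocyte markers were high in all arrays, with a mean of 12.29 to 12.40 in wild type and 12.40 to 12.49 in transgenic fat, and 1 of 10, Adipoq, passed the threshold (0.30, limma adjusted p = 0.0309). Macrophage markers had a mean of 9.66 to 10.48 in wild type and 9.38 to 9.76 in transgenic fat. Of these 12 genes 11 were below 0 and 1, Fcgr1, passed (-1.09, limma adjusted p = 0.0469). Of 7 neutrophil markers 6 were below 0, and S100a8 (-1.51) and Csf3r (-0.46) passed the threshold (limma adjusted p = 0.0280 and 0.0201), while Retnlg differed by 0.88 (SE 0.42) and S100a9 by -0.08. Fibroblast markers had a median difference of -0.26, with 5 below 0, 3 above 0 and 0 of 8 called. Lum (-0.76) and Col1a1 (-0.63) lay lower in every transgenic array (limma adjusted p = 0.0565 and 0.0981). The 3 above 0 were Pi16 (0.63, SE 0.30), Dpp4 (0.18) and Dcn (0.039). All 7 mast cell markers were below 0 (median -0.23) and both red cell markers above 0 (median 0.61), with none called. B cell markers were highest in wild-type replicate 3 (7.05) and transgenic replicate 3 (6.77), with none of 9 called. The epithelial and mesothelial keratin Krt8 stood at 9.97 and 9.56 in wild-type replicates 3 and 4 and between 6.83 and 7.82 in the other 6 arrays. T cell (9), endothelial (8) and mesothelial (8) markers gave no calls, with median differences of -0.11, 0.096 and 0.30. Of the 9 T cell markers 7 were below 0, while Cd2 lay higher in every transgenic array (0.57, limma adjusted p = 0.0608). Of the epididymis markers 7 of 9 had means under the 25th percentile of all genes. The part of these cell types in the ribosomal protein values was not tested.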

How the data were processed

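Total RNA of 8 samples was converted to whole-transcript cDNA and hybridised to single-colour arrays, per the labels' protocols. The authors deposited log2 expression values per probe set. The submitters' processing notes name RMA (background correction, quantile normalisation and probe summary); its version and settings are not given in the sources used here. This normalisation hides a shift shared by most genes, and dim probe sets understate differences. Array medians lay between 5.97 and 6.04. No detection calls were used, and the number of arrays limits the precision.

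Of 35556 probe sets, 21218 had 1 symbol, 1881 several and 12457 none; 21185 symbols were updated through Entrez identifiers with the GRCm38.p6 gene table. The probe set with the highest mean stood for each of 18820 genes. Transgenic and wild-type arrays were compared in R 4.3.3 by limma 3.58.1 (two-sided eBayes test after lmFit, Benjamini-Hochberg threshold 0.05), a procedure tested on simulated data. Promoters were searched in Python 3.11.15 and figures drawn with matplotlib 3.10.9. Levels were not compared between genes.

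Members and lists were chosen with earlier results of these data known. Named members were the 8 largest differences each way, the paralogs with their partners, the stalk proteins, Rpsa, Rps6 and Rpl13a, and from each other translation list the called genes or the 2 with the lowest p. Ribosomal protein genes outside the 76 were not analysed here. Alternatives covered scaling, filters, probe set choice, priors, array weights, blocks, thresholds and removal of arrays. Same-numbered replicates correlated by 0.0566 to 0.102 in their deviations and were not treated as pairs.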

Additional observations from a re-analysis of the deposited data

Results flagged for a closer look

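In 6 of 130 groups of 4 arrays (4.62%), 1 array stood far from the other 3, and chance alone does so in about 1 in 20. They were Rpl11 in transgenic replicate 1 (10.97, the others 10.87), Rpl36a in transgenic replicate 4 (11.27), Rpl39l in transgenic replicate 4 (4.43), Rplp0 in transgenic replicate 3 (12.26), Snora70 in wild-type replicate 2 (6.38) and Snord16a in wild-type replicate 1 (7.24).

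Probe sets annotated to several symbols were outside the gene comparison. Of these, 64 list a ribosomal protein gene among their symbols, and 4 of them passed the threshold over all probe sets (limma adjusted p 0.00814 to 0.0478). The 4 differed by 0.41, 0.41, 0.37 and 0.52, with 10.52 to 10.94 in wild type and 11.01 to 11.36 in transgenic arrays. All 4 carry the same pair of symbols, those of a microRNA and of a ribosomal protein, so no gene can be named from them. The other 60 ranged from -0.18 to 0.33 and none was called.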

How the results depend on the processing

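No ribosomal protein gene was called lower under any alternative, and none was called higher under any block or on removal of any single array. On removal of single arrays, limma's counts over all genes ranged from 50 to 520 higher and 32 to 668 lower. Members called higher numbered 5 among genes at or above the median gene (Rpl11, Rpl26, Rpl38, Rps15 and Rps19), 1 with the mean of all probe sets (Rps9), 3 with the probe set of highest SD (Rpl38, Rps15 and Rps9), 2 with a trended robust prior (Rpl38 and Rps15), 2 with array weights (Rpl26 and Rplp2), 5 at a threshold of 0.1, 14 at an unadjusted p of 0.05, and 1 with every probe set tested alone. The members' median difference was 0.12 within the arrays numbered 5 in their names, wild-type replicate 3 and transgenic replicate 2 alone. It was 0.023 within those numbered 7 and 0.039 to 0.080 without single arrays. It became -0.073 with arrays centred on the median of these genes. Centring on their median deviation, an alternative added after seeing the data, gave 0.0019. Those centrings gave 204 genes higher and 1492 lower, and 241 and 440. Over all genes, higher and lower counts were 741 and 554 for genes at or above the median gene, 724 and 539 with array weights, 44 and 28 with a block for the number in the array names and 10 and 60 for the letter, 13 and 5 on removal of both transgenic arrays with a final 2 in their names, and 857 and 680, 43 and 26, and 2106 and 1772 at thresholds of 0.1, 0.01 and an unadjusted 0.05. That final 2 is neither the number in the array names used for the block nor the replicate number. The causes were not tested.

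With the replicate number as a block, the counts were 40 and 53 and Snord73b (limma adjusted p = 0.0928), Mrpl54, Mrpl55, Mrps15 and Eif4ebp1 were no longer called. Only replicate 4 correlated best with its own number. This check cannot exclude a pairing, and the labels give none.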
